A study of Mus musculus with 18 samples.

Results

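Glucose breakdown in CD4 T cells was followed through 35 genes, the transporters, enzymes and regulators of glycolysis, of lactate formation and export, of pyruvate entry into mitochondria and of the pentose phosphate pathway. They were chosen by name from the pathway and made up 35 of the 55536 genes in the count table. All 35 passed the filter on low counts, which kept 15204 genes, and together they held between 0.585% and 0.707% of the counts of a library. The cells came from C57BL/6 mice and all carried OTII, a transgene for a T cell receptor that recognises ovalbumin. W131AOTII cells also carried W131A, an exchange in the kinase ZAP-70 that disturbs its autoinhibited state, and the series treats them as a genetic model of anergy, the unresponsive state of T cells. Cbl-b-/- cells lacked the ubiquitin ligase Cbl-b, a brake on T cell activation. The 6 groups were peripheral OTII, peripheral W131AOTII, peripheral Cbl-b-/- OTII, peripheral Cbl-b-/-W131AOTII, thymic OTII and thymic W131AOTII, with 3 libraries in each. Peripheral cells were naive CD4 T cells with low CD44, pooled from spleen and lymph nodes, and thymic cells were CD4 single-positive thymocytes; both sorts took cells without CD25 and with Va2. The series asks which pathways under Cbl-b control bring back responsiveness. Mouse ages: not given in the sources used here. According to the labels, cells were sorted from 12 W131AOTII animals (4 to a group), from 6 double-mutant animals (2 to a group), from 3 OTII animals and from 3 animals written as Cbl-b-/-; which animals gave which library is not stated, so p-values cover only the variation among libraries, which may be technical.

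Glycolysis splits glucose into pyruvate in a preparatory phase that spends ATP and a payoff phase that regains it. Lactate dehydrogenase turns pyruvate into lactate for export, whereas the pyruvate carrier and the pyruvate dehydrogenase complex pass it to mitochondrial respiration; pyruvate dehydrogenase kinases switch that complex off. The pentose phosphate pathway branches off to make NADPH and ribose. Resting naive T cells rely mainly on respiration, and activated T cells raise glucose uptake and lactate output.

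The promoters of Pdk1, a pyruvate dehydrogenase kinase, and Ldhb, the lactate dehydrogenase subunit that predominates in heart, are shown because these genes gave the member differences between periphery and thymus with the smallest adjusted p in OTII and in W131AOTII cells. Each stretch is the 250 bases before the transcription start, read 5′ to 3′ on the strand of the gene, from RefSeq on GRCm38.p6. That of Pdk1 lies at chr2:71872974-71873223 on the plus strand and that of Ldhb at chr6:142507958-142508207 on the minus strand. Capitals mark matches on either strand to ACGTG or GCGTG, the core of sites bound by hypoxia-inducible factors, to CACGTG, the E-box bound by MYC and others, which contains ACGTG, and to GGGCGG, the GC box.
Pdk1: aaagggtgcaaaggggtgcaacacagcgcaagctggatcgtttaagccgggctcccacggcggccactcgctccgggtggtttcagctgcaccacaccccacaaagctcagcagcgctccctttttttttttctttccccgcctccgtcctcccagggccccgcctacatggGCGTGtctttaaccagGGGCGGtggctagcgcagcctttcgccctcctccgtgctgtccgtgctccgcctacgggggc
Ldhb: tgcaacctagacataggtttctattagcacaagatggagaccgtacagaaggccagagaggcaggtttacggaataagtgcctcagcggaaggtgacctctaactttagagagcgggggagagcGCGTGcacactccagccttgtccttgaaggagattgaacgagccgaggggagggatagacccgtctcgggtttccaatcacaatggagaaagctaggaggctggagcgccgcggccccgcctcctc
The Pdk1 window held 1 match to GCGTG and 1 to GGGCGG, and the Ldhb window 1 match to GCGTG. Of the members, 34 had a window in the table, which had none for Slc2a3, and together they had 50 windows. GCGTG was found in 58.0% of the member windows and 28.2% of all 32851 windows, GGGCGG in 58.0% and 32.7%, ACGTG in 34.0% and 16.6%, and CACGTG in 10.0% and 6.02%. A match is a description of the letters, not a site, and windows of 1 gene can share sequence. The 32851 windows were not limited to genes that passed the count filter or matched to the members in GC content. The part of these in the shares was not tested.

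Total counts per library ran from 19708218 to 36218772. All 10 markers of CD4 T cells had counts in every library, with group means of 1010 to 1494 CPM (counts scaled to a common library size) for Cd4. Cblb, the deleted gene, was at 122 to 177 CPM in the 6 peripheral libraries with Cbl-b and at 51.0 to 111 CPM in the 6 without; reads remained, and the labels do not say which part of the gene was removed. The summed level of 10 B cell markers, none of them at 0, was 5492 CPM in peripheral W131AOTII replicate 2 against 1656 to 2632 CPM in the other peripheral libraries, and that of 10 myeloid markers was 103 CPM against 6.25 to 40.6 CPM. Peripheral Cbl-b-/- OTII replicate 2 gave 1.66% of its counts to ribosomal protein genes, against at most 1.01% elsewhere. In thymic W131AOTII replicate 1, 11 cycling markers summed to 1527.5 CPM, against 543 to 1027 CPM in the other thymic and 272 to 462 CPM in the peripheral libraries. An alternative fit left out 3 libraries that had stood apart in an earlier analysis of these data: peripheral W131AOTII replicate 2, peripheral Cbl-b-/- OTII replicate 2 and thymic OTII replicate 3. Libraries also differed in how their levels followed the GC content of genes, which matters below because the members are somewhat rich in GC (42.9% to 57.7%, median 52.6%, against a median of 49.0% over all genes with a value).

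Ldha, the lactate dehydrogenase subunit that favours lactate formation, and Aldoa, the aldolase that cleaves the 6-carbon sugar, were the most abundant members per exon length. Group means of Ldha ran from 280 to 402 RPKM (CPM divided by the exon length in kilobases) and those of Aldoa from 147 to 242 RPKM. In peripheral OTII cells Pdk1 followed with 166 ± 10.5 RPKM, then Pkm, the pyruvate kinase of the last step, with 122 ± 12.0, the pentose phosphate enzyme Taldo1 with 109 ± 12.7, the enolase Eno1 with 64.8 ± 8.66, the pyruvate dehydrogenase subunit Pdha1 with 55.6 ± 1.59, Ldhb with 50.1 ± 0.502 and the hexokinase Hk1 with 47.4 ± 5.63 RPKM (SD, n = 3 each). Where a step had several isozymes the ratio could be steep. Aldoc stood at 1.53 ± 0.231 RPKM beside Aldoa at 231 ± 17.5 RPKM in those cells. Hk2, the hexokinase that activated T cells induce, was barely detected, with 0 to 57 counts per library, and no fold is given for it. Slc16a3, the lactate exporter of strongly glycolytic cells, had group means of 0.316 to 0.904 RPKM, whereas the related Slc16a1 had 18.9 to 24.8 RPKM.

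The levels of some common enzymes were low, and near-identical copies elsewhere in the genome can take reads of a gene. Gapdh, which oxidises glyceraldehyde phosphate and is usually among the most abundant transcripts, was measured at only 7.74 to 11.1 RPKM, Pgk1 at 3.27 to 3.68 RPKM and Pgam1 at 1.21 to 1.74 RPKM as group means. For Gapdh, 78 copies of at least 95% identity over 200 bases were found, of which 76 had counts amounting to 21.7% of those of Gapdh; adding them raised its level 1.20- to 1.24-fold. For Pgk1 and Pgam1 the annotated copies held only 0.202% and 0.204% as many counts, and adding them changed their levels at most 1.01-fold. The pyruvate carrier subunit Mpc1 has a pseudogene, Mpc1-ps, with 39.1% as many counts, and adding it raised Mpc1 1.35- to 1.43-fold. The authors' handling of reads that fit several places, and their strand setting: not given in the sources used here. Reads left out of the counts for fitting several places would not come back by adding copies, so such a loss was not tested. Exons of G6pdx overlap those of Ikbkg on the other strand over 418 bases, Pfkp those of Pitrm1 over 748 bases, Gpi1 those of Gm26762 over 741 bases and Pdha1 those of Map3k15 over 603 bases, so reads there cannot be assigned with certainty. Exons of Pkm and Pfkm overlap those of Gm49759 and Gm26513 on the same strand.

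**Figure D1:**
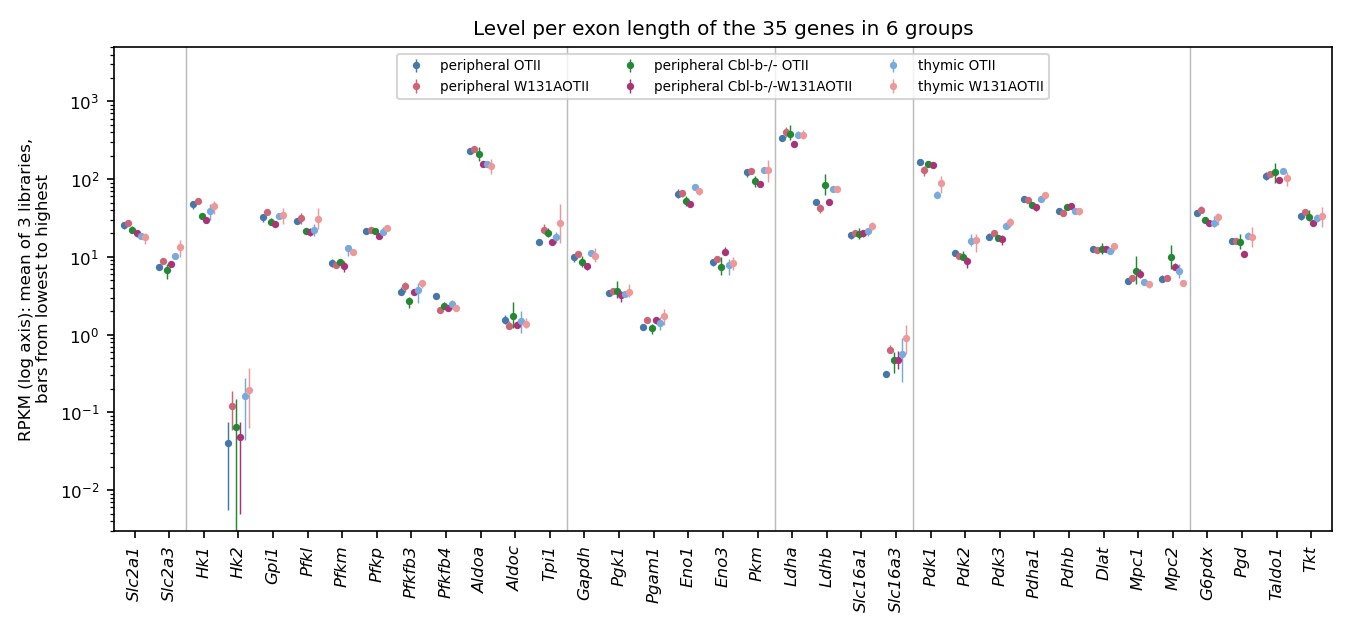
Levels of the 35 genes in RPKM on a log axis, as means of the 3 libraries of each group with bars from the lowest to the highest library. Ldha and Aldoa lie at the top, Hk2 lies lowest with wide bars, and Pdk1 shows peripheral groups above thymic ones.

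**Figure D2:**
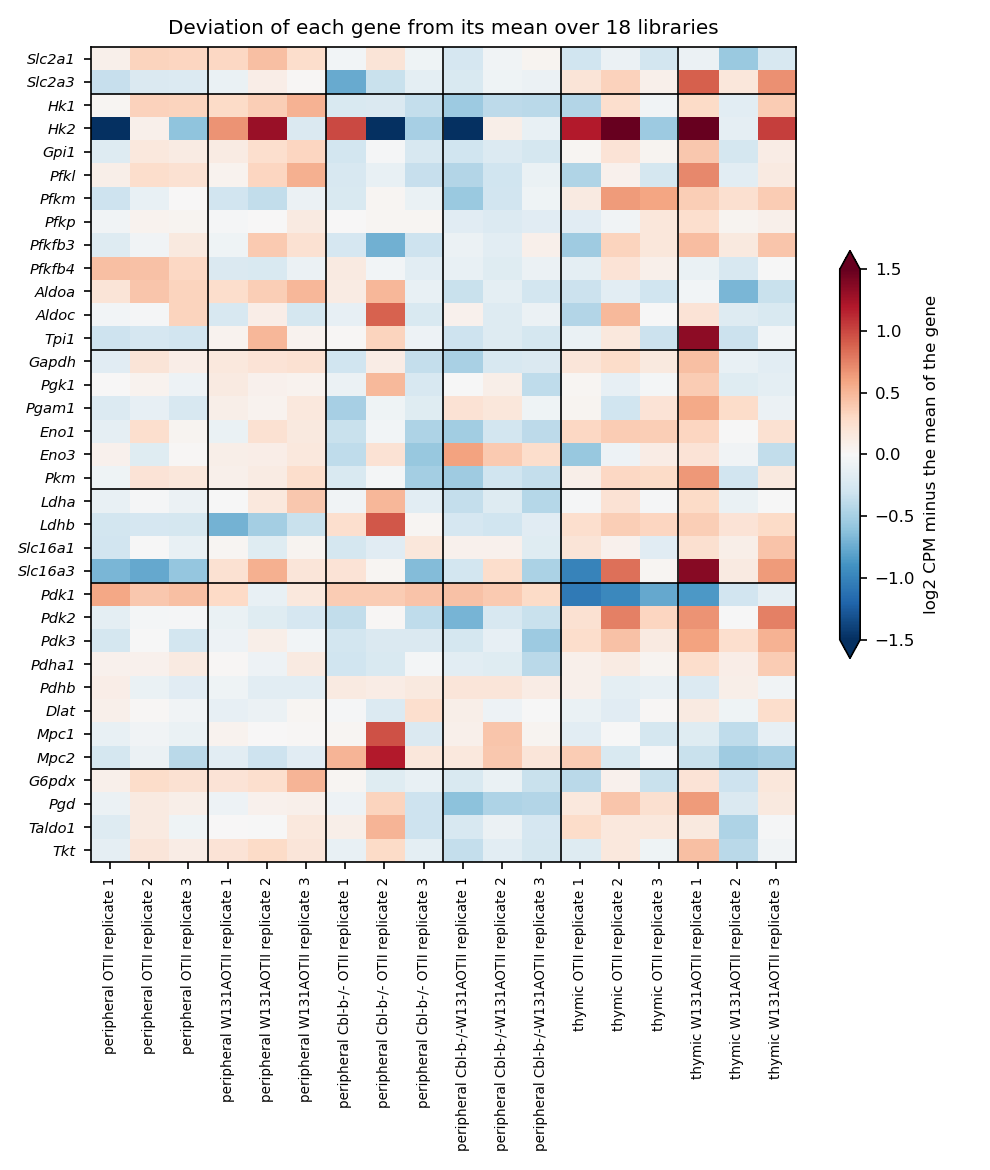
Log2 CPM of each gene (rows, ordered by role) minus its mean over the 18 libraries (columns, 3 per group); red is above and blue below that mean. The Pdk1 row is blue in the thymic libraries, many rows are blue in the Cbl-b-/-W131AOTII columns, and thymic W131AOTII replicate 1 is red in most rows.

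The difference of a single member with the smallest adjusted p in any comparison was that of Pdk1 between the OTII tissues. In OTII cells Pdk1 measured 1382, 1224 and 1270 CPM in the 3 peripheral libraries and 443, 472 and 543 CPM in the 3 thymic ones. All peripheral libraries lay far above all thymic ones, and Pdk1 was 2.66-fold higher in the periphery (log2 fold change 1.41 ± 0.15 SE, adjusted p = 2.31e-06, edgeR quasi-likelihood test, Benjamini-Hochberg over all 15204 genes). This call held in every alternative fit that was run. Of the 35 members 3 were called higher and 3 lower in the OTII periphery, where 18.3% of all genes tested were called (7.75% higher and 10.6% lower), so the share of members called was near the background. The median log2 fold change of the members was -0.07, beside -0.01 over all genes.

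Glucose transporters split between the tissues. Slc2a1 encodes GLUT1, the transporter that activated T cells raise, and measured 80.4, 96.2 and 95.8 CPM in peripheral and 62.4, 71.9 and 63.2 CPM in thymic OTII libraries. The groups did not overlap, and Slc2a1 was higher in the periphery (log2 fold change 0.46 ± 0.13, adjusted p = 0.0205). In W131AOTII cells it measured 94.6, 104 and 92.1 CPM in the periphery and 71.8, 51.8 and 65.0 CPM in the thymus, again without overlap (0.63 ± 0.14, adjusted p = 0.00231). Slc2a3, which encodes the high-affinity GLUT3, went the other way in W131AOTII cells, with 59.9, 68.9 and 65.0 CPM in the periphery against 120, 72.5 and 103 CPM in the thymus (-0.61 ± 0.17, adjusted p = 0.0128). In OTII cells its difference was -0.47 ± 0.17 and did not pass (adjusted p = 0.0591).

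Within glycolysis, Aldoa was higher and Pfkm, the muscle-type phosphofructokinase of the committed step, lower in the periphery in both genotypes. Aldoa measured 617, 718 and 681 CPM in peripheral and 430, 482 and 440 CPM in thymic OTII libraries, with a clear gap between the groups (0.58 ± 0.16, adjusted p = 0.0134). The W131AOTII libraries gave 650, 699 and 764 CPM for Aldoa in the periphery and 525, 334 and 428 CPM in the thymus (0.71 ± 0.16, adjusted p = 0.00265). Pfkm is the rarest of the 3 phosphofructokinases. It measured 25.0, 28.8 and 31.1 CPM in peripheral and 34.0, 48.2 and 46.7 CPM in thymic OTII libraries (-0.60 ± 0.16, adjusted p = 0.0104), and its W131AOTII difference was -0.58 ± 0.16 (adjusted p = 0.0127). In this fit, without GC offsets, the more abundant Pfkl and Pfkp passed in neither genotype, nor did any of the 6 payoff-phase genes from Gapdh to Pkm.

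Ldhb, whose subunit favours the conversion of lactate to pyruvate, was lower in the periphery. OTII libraries measured 78.0, 79.5 and 78.3 CPM in the periphery and 113, 122 and 118 CPM in the thymus (-0.58 ± 0.17, adjusted p = 0.0178). The corresponding W131AOTII values were 57.9, 66.4 and 75.0 CPM and 122, 109 and 116 CPM (-0.80 ± 0.17, adjusted p = 0.00176). Each genotype kept the tissues apart. Ldha, its partner subunit, passed in neither.

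The pyruvate dehydrogenase kinases moved in opposite directions. Pdk3 was lower in the periphery in OTII cells, at 44.0, 52.7 and 43.8 CPM against 63.6, 71.8 and 57.8 CPM (-0.46 ± 0.14, adjusted p = 0.0226), and in W131AOTII cells (-0.48 ± 0.14, adjusted p = 0.0170). Pdk2 was lower in the W131AOTII periphery, at 34.4, 32.7 and 31.0 CPM against 59.3, 37.0 and 62.4 CPM (-0.69 ± 0.19, adjusted p = 0.0125), while its OTII difference of -0.52 ± 0.19 did not pass (adjusted p = 0.0610). Pdk1 was also higher in the W131AOTII periphery, at 1138, 859 and 1037 CPM against 509, 758 and 842 CPM (0.52 ± 0.15, adjusted p = 0.0182), with its groups barely separated. Pdha1, the subunit these kinases phosphorylate, and Pdhb and Dlat of the same complex passed in neither genotype. No pentose phosphate gene passed in this fit either, though 1 did in OTII cells with the GC offsets given below. In W131AOTII cells 3 members were called higher and 5 lower in the periphery, with 19.2% of all genes called (8.07% higher and 11.2% lower), and the members' median of -0.07 stood beside -0.02 over all genes. The peripheral and thymic sorts also differed in the cycling markers given above, in the B cell markers (654 to 960 CPM summed in thymic libraries, with Pax5 at 0 in 5 of 6) and in 5 NK markers (64.1 to 239 CPM in thymic and 21.2 to 124 CPM in peripheral OTII and W131AOTII libraries). Between the same libraries 7 heat shock and handling genes summed to 546 to 1032 CPM in thymic and 354 to 503 CPM in peripheral ones. Much of that sum was Egr1, with means of 502 and 327 CPM in thymic and 127 and 119 CPM in peripheral OTII and W131AOTII cells. In OTII cells the other genes of the list were also higher in the thymus, except Hsph1. In W131AOTII cells Dnajb1 and Hsph1 were higher there, but Hspa1a, Hspa1b, Fos and Jun were lower. The 5 thymic stroma markers summed to 9.53 to 18.3 CPM in thymic and 3.73 to 6.66 CPM in peripheral libraries. The part of all these markers in the member differences was not tested. In bulk RNA, fewer cells of a type and less RNA per cell cannot be told apart.

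Once offsets removed each library's trend with GC content and transcript length, the OTII count rose to 7 higher and 4 lower and the W131AOTII count was 4 higher and 5 lower. In OTII cells 4 of the 11 preparatory-phase genes were then higher and 1 lower, and 1 pentose phosphate gene was higher. No payoff-phase gene passed with offsets in either genotype, and no pentose phosphate gene in W131AOTII cells. Calls over all 15204 genes rose too. In OTII cells they went from 1179 higher and 1606 lower to 1920 and 1957, and in W131AOTII cells from 1227 and 1696 to 1906 and 1894. Scaling by library size in place of TMM gave 3 higher and 6 lower in OTII cells. Besides Pdk1 in OTII cells, Slc2a1, Aldoa and Ldhb in W131AOTII cells passed in every alternative fit. The other calls each failed when at least 1 library was left out, and their largest adjusted p over those fits was between 0.0525 and 0.104.

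**Figure D3:**
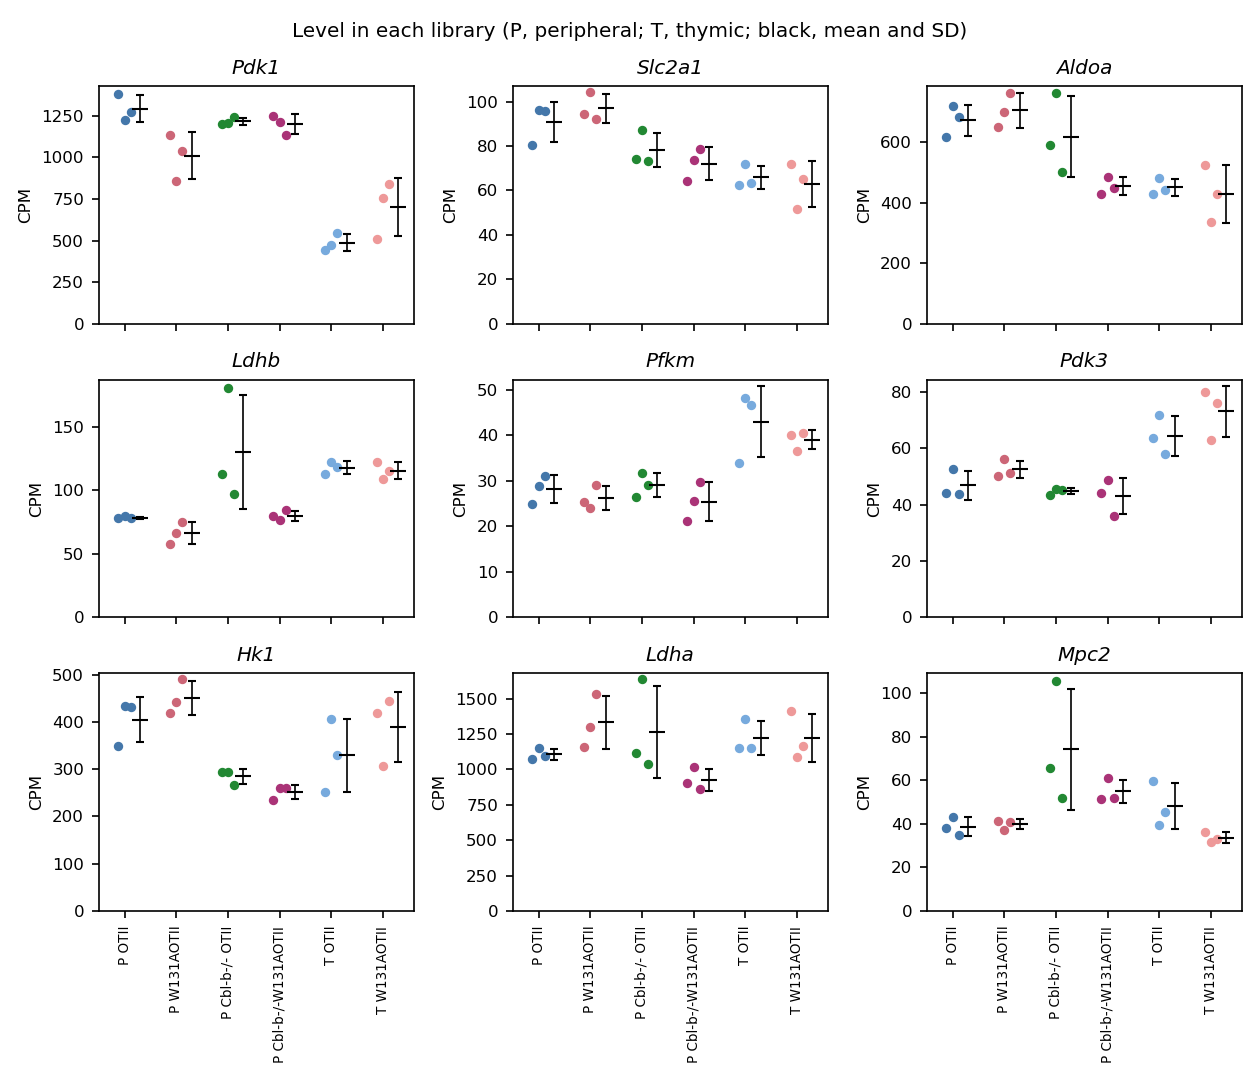
CPM of 9 members in each library (points) with the mean and SD of the 3 libraries of a group (black); each vertical axis starts at 0. Pdk1, Slc2a1 and Aldoa are higher in peripheral OTII and W131AOTII than in thymic libraries, Ldhb, Pfkm and Pdk3 are lower, Hk1 has its lowest means in the Cbl-b-/- groups, and Mpc2 and Ldhb peak in Cbl-b-/- OTII replicate 2.

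The tissue difference of Pdk1 was 0.89 smaller on the log2 scale in W131AOTII than in OTII cells, equal to a difference between its 2 W131A effects of -0.89 ± 0.21. It did not pass in the edgeR fit (adjusted p = 0.0841), and none of the 35 members did, where 0.381% of all genes were called (0.296% higher and 0.0855% lower). Pdk1 was the only member with an unadjusted p under 0.05, beside 1448 of all 15204 genes. In other fits 1 member passed by DESeq2 and 1 by voom. That member was Pdk1 (adjusted p = 0.0122 by DESeq2 and 0.00372 by voom). Without thymic W131AOTII replicate 1, the lowest of its group at 509 CPM, the difference was larger (-1.07, adjusted p = 0.00406). Mpc2, the other subunit of the pyruvate carrier, came next (0.55 ± 0.28, adjusted p = 0.557). The median over the members was 0.01, beside -0.01 over all genes.

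W131A alone changed no member past the threshold in the periphery, where 1.93% of all genes were called (1.68% higher and 0.250% lower). An unadjusted p under 0.05 was found for 3 of the 35 members and for 1411 of all 15204 genes. DESeq2 and voom called 1 each. Pfkfb4, a regulator that sets the level of the phosphofructokinase activator fructose 2,6-bisphosphate, came closest. It measured 15.9, 15.8 and 14.4 CPM in OTII and 10.0, 9.87 and 10.9 CPM in W131AOTII libraries. The groups did not overlap and were narrow, and the difference was -0.58 ± 0.15 (adjusted p = 0.0588, edgeR), 0.00285 by DESeq2, 0.00520 by voom and 0.0144 with GC offsets, but 0.0825 to 0.288 when any of the 6 libraries was left out. Slc16a3 came next, at 1.67, 1.57 and 1.79 CPM in OTII and 3.20, 3.95 and 3.09 CPM in W131AOTII libraries (1.02 ± 0.40, adjusted p = 0.338). Of the members 25 had a value above 0 and 10 below, with a median of 0.09 beside -0.00 over all genes, and with GC offsets 22 and 13. Over all genes 7558 values were above 0 and 7646 below, and with GC offsets 7452 and 7722. The 6 payoff-phase genes lay between 0.04 and 0.30 and none of them passed; with GC offsets 4 were above 0 and 2 below.

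In the thymus W131A also left every member short of the threshold, with 2.77% of all genes called (1.73% higher and 1.04% lower). An unadjusted p under 0.05 was found for 5 of the 35 members and for 2500 of all 15204 genes. DESeq2 called 1 member and voom 3. Pdk1 had the smallest adjusted p, with the thymic values given above and groups that overlapped (0.53 ± 0.15, adjusted p = 0.0683); by DESeq2 it was 0.0175. Mpc2 measured 59.8, 39.3 and 45.5 CPM in OTII and 36.4, 31.8 and 32.8 CPM in W131AOTII thymocytes, without overlap (-0.52 ± 0.20, adjusted p = 0.199). Tpi1, which interconverts the 3-carbon sugars, was at 131.4 CPM in thymic W131AOTII replicate 1 against 41.4 and 50.5 CPM in the other libraries of its group, and its difference turned from 0.60 to -0.08 without that library. Pkm (884 against 463 and 625 CPM) and Pfkl (281 against 152 and 186 CPM) peaked in the same library, the one with the highest cycling markers; the part of cycling cells in this was not tested.

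Without GC offsets, loss of Cbl-b in W131AOTII cells gave the largest count of members called in 1 direction among the 9 comparisons. With them the largest was 7 higher, between the OTII tissues, against 5 lower here. Hk1, which traps glucose in the cell by phosphorylating it, measured 419, 442 and 490 CPM with Cbl-b and 234, 261 and 259 CPM without. The groups were far apart, and Hk1 was at 0.558 of its level with Cbl-b (log2 fold change -0.84 ± 0.16, adjusted p = 0.00691). It was the only member that passed the threshold in every alternative fit. In all, 6 of the 35 members were called lower and none higher, where 9.25% of all genes were called (3.18% higher and 6.08% lower). An unadjusted p under 0.05 was found for 17 of the 35 members and for 4164 of all 15204 genes. The median of the members was -0.25, beside 0.03 over all genes. Of the members 24 of 35 values were below 0, and of all genes 7190 of 15204.

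The other 5 were spread along the pathway. Gpi1, which converts glucose 6-phosphate to fructose 6-phosphate, measured 223, 245 and 256 CPM with and 167, 178 and 171 CPM without Cbl-b (-0.49 ± 0.14, adjusted p = 0.0397). Aldoa went from 650, 699 and 764 CPM to 428, 486 and 447 CPM (-0.63 ± 0.16, adjusted p = 0.0217), and Eno1, which makes phosphoenolpyruvate, from 314, 391 and 371 CPM to 233, 277 and 255 CPM (-0.49 ± 0.14, adjusted p = 0.0320). In none of these did the groups overlap. Ldha measured 1160, 1299 and 1535 CPM with and 906, 1014 and 861 CPM without Cbl-b (-0.52 ± 0.16, adjusted p = 0.0440). G6pdx, the enzyme that commits glucose 6-phosphate to the pentose phosphate pathway, measured 113, 117 and 139 CPM with and 83.3, 91.4 and 77.6 CPM without (-0.55 ± 0.15, adjusted p = 0.0306). Just outside the threshold were Slc2a1 (-0.43 ± 0.13, adjusted p = 0.0504), Pfkl (-0.59 ± 0.19, 0.0508), Pkm (-0.54 ± 0.18, 0.0572) and Gapdh (-0.51 ± 0.17, 0.0586). By role, the median was -0.50 over the 4 pentose phosphate genes, all below 0, -0.48 over the 11 preparatory-phase genes and 0.11 over the 8 genes of pyruvate entry, none of which passed. The higher values in that last role were those of the carrier subunit Mpc2 (0.46) and the dehydrogenase subunit Pdhb (0.28).

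These shifts ran along the GC content of the genes. Over 15198 genes the Spearman correlation of the log2 fold change with GC content was -0.402, and over the 35 members it was -0.469; genes of a library share its depth and base composition, so no p is given. With the GC and length offsets the correlation over all genes was -0.0419, and 5 members were called lower: Hk1 (-0.50, adjusted p = 0.00344), Aldoa (-0.43, 0.0119), Ldha (-0.42, 0.0402), G6pdx (-0.43, 0.0491) and Pdha1, a subunit of the pyruvate dehydrogenase complex. Over all 15204 genes that fit called 460 higher and 730 lower. Eno1 shrank to -0.17 (adjusted p = 0.336) and Gpi1 to -0.27 (0.125), and neither passed. The members' median became -0.17, still with 24 values below 0, beside 0.03 over all genes, where 7128 of 15204 values were below 0. Scaling by library size moved the median of all genes to 0.18 and that of the members to -0.10, with 2 members called lower, Hk1 and Aldoa, and 2 higher, Pdhb (0.43, adjusted p = 0.0398) and Mpc2 (0.61, 0.0468).

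**Figure D4:**
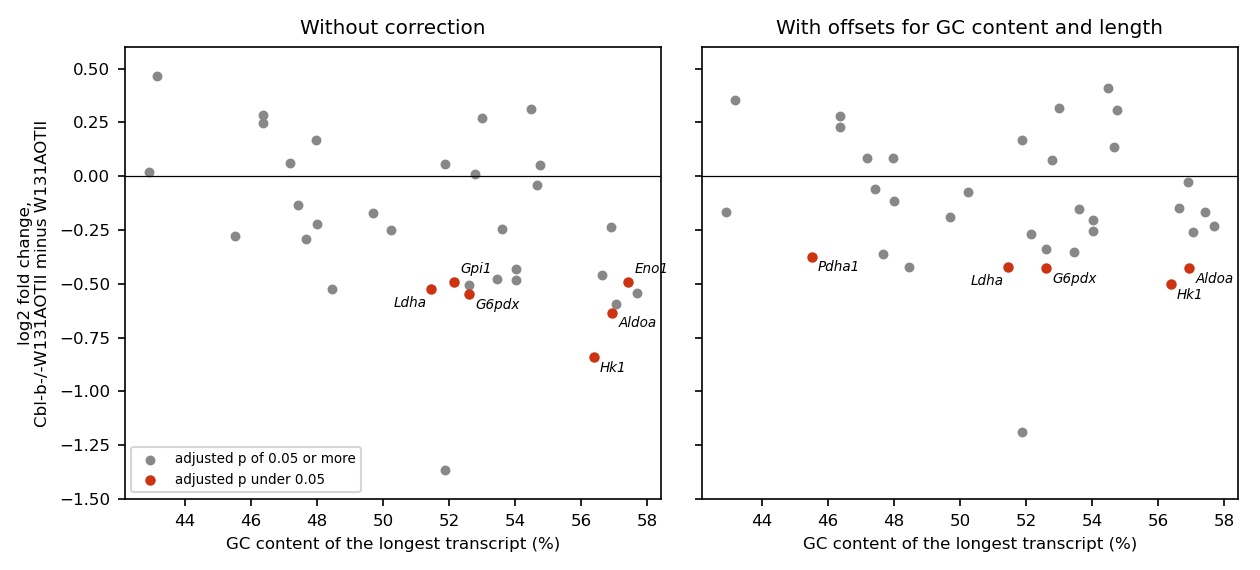
Log2 fold change of the 35 members on Cbl-b loss in W131AOTII cells against the GC content of their longest transcript, without correction (left) and after offsets for GC content and length (right panel); red points passed an adjusted p of 0.05. On the left the values fall towards high GC and 6 members are red; on the right 5 are red, Eno1 and Gpi1 having moved towards 0. The lowest point is Hk2, which has few counts.

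The count was sensitive to single libraries. It fell to 1, Hk1, without peripheral W131AOTII replicate 2, without replicate 3 of that group, or without Cbl-b-/-W131AOTII replicate 1, and to 2 without Cbl-b-/-W131AOTII replicate 3. Peripheral W131AOTII replicate 2 is the library with high B cell and myeloid markers. B cell markers summed to 2354 to 5492 CPM with and 1656 to 1815 CPM without Cbl-b, and cycling markers to 387 to 462 CPM and 272 to 295 CPM, so both lay lower without Cbl-b. So did 7 naive T cell markers (10010 to 11309 CPM with, 8173 to 8550 CPM without), while the mitochondrial share of counts was higher (0.517% to 0.649% with, 0.713% to 0.968% without). The 7 heat shock and handling genes summed to 354 to 503 CPM with and 423 to 561 CPM without Cbl-b, which overlapped. Of that list the means of Hspa1b (7.42 and 93.2 CPM), Hspa1a, Dnajb1, Fos and Jun were higher without Cbl-b. Those of Hsph1 (107 and 55.9 CPM) and Egr1 (119 and 70.3 CPM) were lower. The part of these in the result was not tested. Without that replicate the differences of Aldoa (-0.66), Ldha (-0.56) and G6pdx (-0.60) were at least as large as with it, though no longer past the threshold.

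On the OTII background, without GC offsets, Cbl-b loss raised 2 members and lowered none, with 8.21% of all genes called (5.22% higher and 2.99% lower). Mpc2, which imports pyruvate into mitochondria together with Mpc1, measured 38.3, 43.2 and 34.7 CPM with and 65.4, 105 and 51.7 CPM without Cbl-b (0.94 ± 0.20, adjusted p = 0.0108). Ldhb measured 78.0, 79.5 and 78.3 CPM with and 113, 181 and 96.8 CPM without (0.73 ± 0.17, adjusted p = 0.0144). For both, every library without Cbl-b lay above every library with it, and replicate 2 stood highest. Without Cbl-b-/- OTII replicate 2, the library with the highest ribosomal protein share, Mpc2 was at 0.59 (adjusted p = 0.0565) and Ldhb at 0.41 (0.0667). Neither passed without OTII replicate 3 (0.0867 and 0.0868), and Ldhb did not without OTII replicate 2 (0.0582). The groups differed as wholes too. Ribosomal protein genes took 0.647% to 0.729% of counts with and 0.754% to 1.66% without Cbl-b. Naive T cell markers summed to 9449 to 10597 CPM with and 8841 to 8986 CPM without. Among heat shock and handling genes the means of Hspa1b (0.843 and 31.3 CPM), Hspa1a, Dnajb1, Fos and Jun were higher without Cbl-b, those of Hsph1 and Egr1 lower. The part of that library's composition, or of these group differences, in the values was not tested.

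Hk1 was lower here too, at 349, 434 and 431 CPM with and 293, 295 and 267 CPM without Cbl-b, but did not pass (-0.51 ± 0.16, adjusted p = 0.0541), and with GC offsets its difference was -0.16. The OTII comparison had a GC trend as well, at -0.270 over all genes and -0.391 over the members. With the GC and length offsets 2 members were called higher and 1 lower, the lower one among the 8 genes of pyruvate entry. Over all 15204 genes that fit called 647 higher and 233 lower. The members' median was -0.05, beside 0.04 over all genes. Library-size scaling gave 2 members higher and 1 lower.

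Whether Cbl-b loss acted differently on the 2 backgrounds was tested as the interaction with W131A. No member passed in the edgeR fit, where 0.631% of all genes were called (0.0395% higher and 0.592% lower). An unadjusted p under 0.05 was found for 4 of the 35 members and for 1871 of all 15204 genes. DESeq2 and voom called 0 members. Ldha was closest (-0.72 ± 0.22, adjusted p = 0.203). Its Cbl-b-/- OTII libraries stood at 1119, 1638 and 1039 CPM, beside 1073, 1149 and 1096 CPM in OTII libraries with Cbl-b; the W131AOTII values are those given above. Aldoa came next (-0.51 ± 0.22, adjusted p = 0.365). Members had a median of -0.22, beside -0.02 over all genes, and the library-size fit gave -0.09 beside 0.12. Of the members 27 of 35 values were below 0, and of all genes 7860 of 15204.

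Among cells without Cbl-b, W131A lowered Ldhb, the only member called where 1.89% of all genes were (0.802% higher and 1.09% lower). The libraries were 113, 181 and 96.8 CPM in Cbl-b-/- OTII and 79.6, 76.5 and 84.3 CPM in Cbl-b-/-W131AOTII cells, without overlap (-0.70 ± 0.17, adjusted p = 0.0318). Without Cbl-b-/- OTII replicate 2 the difference was -0.38 (adjusted p = 0.167), and leaving out any of the Cbl-b-/-W131AOTII libraries gave 0.0958 to 0.124. Eno3, the muscle-type enolase, measured 11.6, 17.5 and 10.1 CPM in Cbl-b-/- OTII and 23.0, 19.9 and 18.2 CPM in Cbl-b-/-W131AOTII libraries (0.64 ± 0.21, adjusted p = 0.131), and passed with GC offsets (0.0192) and without Cbl-b-/- OTII replicate 2 (0.0345). The members' median was -0.14, beside -0.02 over all genes, with 29 of 35 values below 0 and 7926 of 15204 over all genes. These 4 peripheral comparisons share libraries with each other, so their values are not independent.

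Isozyme shares, each gene's part of the summed RPKM of its family in a library, were compared for 9 families in 3 contrasts with exact 2-sided permutation tests over libraries within strata (400 arrangements, smallest p 0.005) and Benjamini-Hochberg adjustment over the 27 tests; they were chosen after the levels had been seen. Pdk1 made up 77.4% to 86.5% of the 3 kinases in peripheral and 55.9% to 72.9% in thymic OTII and W131AOTII libraries, a mean difference of 19.6 percentage points (exact permutation, adjusted p = 0.0270). Slc2a1 made up 74.5% to 78.2% of the 2 glucose transporters in the periphery and 55.3% to 65.9% in the thymus (15.7 points, adjusted p = 0.0270, exact permutation). In both families the tissues did not overlap.

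Ldha made up 86.7% to 90.7% of the 2 lactate dehydrogenase subunits in the peripheral libraries with Cbl-b, 81.1% to 86.3% in those without and 82.2% to 84.6% in the thymic ones. Its share was 5.26 points lower without Cbl-b and 5.56 points higher in the periphery with Cbl-b than in the thymus (adjusted p = 0.0270 for each, exact permutation). The transcripts of Ldha and Ldhb have GC contents of 51.5% and 53.0% and merged exons of 3310 and 1570 bases. The part of GC content and length in this share was not tested. With W131A, over both Cbl-b genotypes, Pfkfb3, which like Pfkfb4 sets fructose 2,6-bisphosphate, made up 60.9% to 70.4% of that pair against 48.9% to 58.0% without W131A (10.7 points, adjusted p = 0.0270, exact permutation). The Ldha share was 2.82 points higher with W131A (adjusted p = 0.0338) and that of Slc2a1 3.62 points lower (0.0450, exact permutations). Pfkp took 4.51 points more of the phosphofructokinases without Cbl-b (adjusted p = 0.0338), with transcript GC contents of 48.0% for Pfkp and 57.1% for Pfkl. GC content also differed between Slc2a1 (54.0%) and Slc2a3 (47.4%), between Pdk1 (46.4%) and Pdk2 (56.9%), and between Pfkfb3 (50.2%) and Pfkfb4 (54.8%), and the shares were not corrected for it. Aldoa took 99.4% of the aldolases in the periphery and 99.1% in the thymus (adjusted p = 0.0338, exact permutation). These 9 of 27 tests passed. Without the 3 libraries named above none did by the exact permutation test (smallest adjusted p 0.0540). That design has only 100 arrangements and a smallest p of 0.02, so its test is coarser and the loss of calls does not measure the size of the differences. In thymic OTII replicate 3, left out there, the shares were 65.2% for Pdk1, 65.9% for Slc2a1 and 82.2% for Ldha. The other thymic OTII libraries had 59.6% and 55.9% for Pdk1, 63.7% and 64.5% for Slc2a1, and 82.9% and 84.0% for Ldha.

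**Figure D5:**
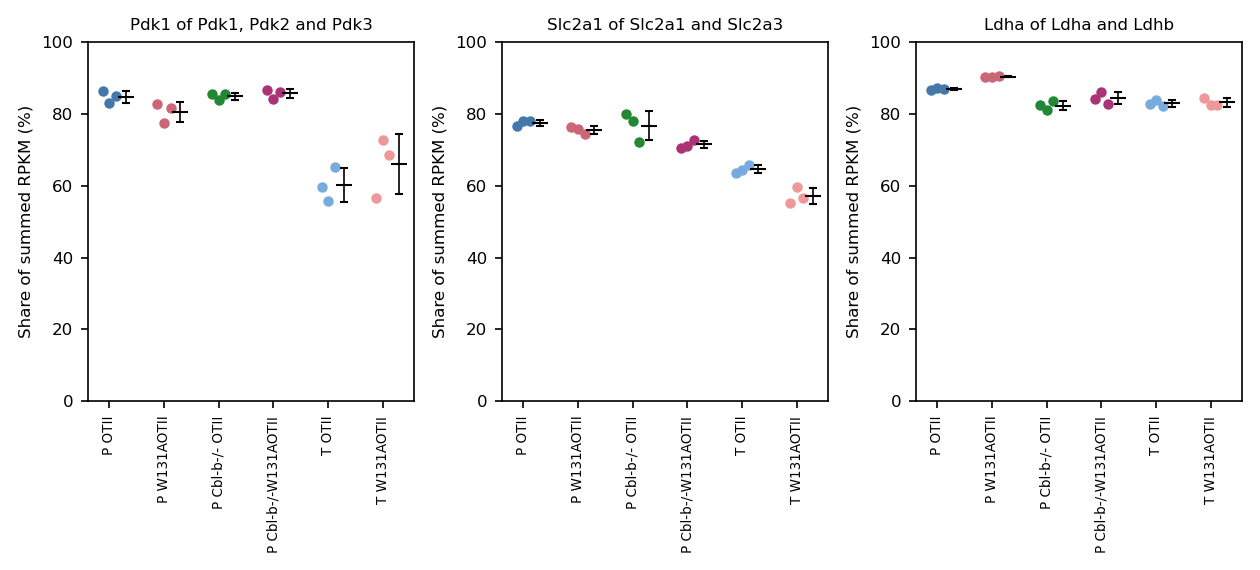
Share of Pdk1 among the pyruvate dehydrogenase kinases, of Slc2a1 among the glucose transporters and of Ldha among the lactate dehydrogenase subunits, in percent of summed RPKM, per library (points) with mean and SD of 3 (black). Pdk1 and Slc2a1 have lower shares in both thymic groups, and the Ldha share is highest in peripheral W131AOTII cells.

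Beyond the members, a list of 52 other genes of the same pathways, of which 40 passed the count filter, gave few calls with genotype, beside the shares of all genes given above (9.25% and 8.21% on Cbl-b loss, 18.3% and 19.2% between tissues). None was called for W131A in the periphery, for W131A without Cbl-b or for either difference between effects. Cbl-b loss lowered Gpd2, the mitochondrial enzyme of the glycerol phosphate shuttle, in W131AOTII cells (-0.48, adjusted p = 0.0214) and in OTII cells (-0.96, adjusted p = 9.38e-05), and raised the pentose phosphate enzyme Rpe in OTII cells (0.57, adjusted p = 0.0236). In the thymus W131A raised Gpd1l, a glycerol phosphate dehydrogenase (0.75, adjusted p = 0.0109). Between tissues 3 were called higher and 4 lower in OTII and 2 higher and 5 lower in W131AOTII cells. The transporter gene Slc16a6 was lower in both peripheries (-0.92 and -0.93, adjusted p = 5.81e-04 and 4.85e-04). The others with the smallest adjusted p were Gpd1l (0.88), Bpgm (-0.67) and Minpp1 (-0.57) in OTII and Pgm1 (0.53), Pdp2 (-0.64) and Rpe (-0.54) in W131AOTII cells.

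A second list held 35 regulators and hypoxia-linked genes, 34 of them tested. Its counts stand beside 1.93% of all genes called for W131A in the periphery, 2.77% in the thymus and 1.89% without Cbl-b, and the same shares as for the other list elsewhere. Bhlhe40, Egln3 and Irf4 rose with W131A in the periphery (2.20, 1.33 and 1.12, adjusted p = 4.31e-05, 0.00675 and 0.00716), and Irf4 and the kinase gene Stk11 fell with it in the thymus (-1.24 and -0.82, 0.00214 and 0.0111). Irf4 is a transcription factor induced by T cell receptor signals. Its W131A effect differed between the tissues (2.36 ± 0.31, adjusted p = 8.65e-04), and Bhlhe40 gave the only interaction with Cbl-b loss (-1.71 ± 0.36, adjusted p = 0.0277). Cbl-b loss raised Arrdc4, a relative of the glucose uptake inhibitor Txnip, on both backgrounds (1.27 and 1.11, adjusted p = 0.00687 and 0.0126), and Arrdc4 was also the only 1 called for W131A without Cbl-b (0.94, 0.0487). In W131AOTII cells 2 genes rose and 3 fell with it, the others being Bnip3l (0.60), Akt2 (-0.69), Tfeb (-0.77) and, named after its value was seen, Irf4 (-0.76); in OTII cells the other 3 were Bhlhe40 (1.29), Tsc2 (-0.72) and P4ha1 (0.45). Between tissues 2 were higher and 7 lower in OTII, led by Irf4 (-2.98) and Egln3 (-1.90), and 1 higher and 5 lower in W131AOTII cells, led by Mycn and Mxi1 (-0.60). Mycn was listed at 0 in both peripheries, with 2.23 CPM in thymic OTII and 1.68 CPM in thymic W131AOTII cells, and no fold is given.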

How the data were processed

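Total RNA of 18 libraries was sequenced (single-end, 50 bases, per the labels' protocols). The authors deposited whole-number, unnormalized counts for each Ensembl gene. The submitters' processing notes name STAR 2.7.2, GRCm38 and DESeq2. Counter, annotation release, strand setting and filters: not given in the sources used here. All 55536 identifiers matched GENCODE M21; 2 share the symbol Aldoa, and the one with more counts was used. The members and lists were chosen with earlier results of these data known.

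All libraries entered 1 edgeR 4.0.16 fit (R 4.3.3) with 1 mean per group, filterByExpr, TMM scaling, a robust quasi-likelihood F test with 12 residual degrees of freedom, and Benjamini-Hochberg adjustment over the 15204 genes tested at 0.05, in 9 contrasts. The test was tried on simulated data. SE is the absolute log2 fold change over the root of F. CPM use TMM-scaled totals, and RPKM divide them by the length of merged exons. Alternatives were DESeq2 1.42.0, voom with quality weights (limma 3.58.1), other scaling and filter, offsets for GC content and length by splines with 5 degrees of freedom, a replicate block, only the groups compared, and left-out libraries. Members past the threshold are named, or the 2 with the smallest adjusted p where fewer than 2 passed, and up to 4 called genes of each other list. No library duplicated another. The labels name no molecular identifiers, so reads may include PCR copies.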

Additional observations from a re-analysis of the deposited data

How the results depend on the processing

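The 23 calls of a member in a comparison gave 345 values under the alternatives, of which 262 kept their direction and passed, 83 kept it and did not pass, and 0 turned. Of the 23 calls, 5 passed under every alternative: Hk1 on Cbl-b loss in W131AOTII cells, Pdk1 between the OTII tissues, and Slc2a1, Aldoa and Ldhb between the W131AOTII tissues. Counts of called members moved as follows; except where a value or the smaller number of libraries shows it, the cause was not tested. For W131A in the periphery the count of 0 became 1 with DESeq2, library-size scaling, voom or GC and length offsets, with or without the block, and 3 with only the groups compared; leaving out 1 library gave 0 to 0. For Cbl-b loss in W131AOTII cells the count of 6 became 12 with DESeq2 or without the filter, 14 with voom, 15 with only the groups compared and 1 without the 3 libraries that stand apart, and 1 to 7 leaving out 1 library. For Cbl-b loss in OTII cells the count of 2 became 4 with DESeq2, 14 with voom and 0 without those 3 libraries, and 0 to 3 leaving out 1 library. For W131A without Cbl-b the count of 1 became 5 with voom, 3 with offsets, with or without the block, and 0 with only the groups compared, and 0 to 4 leaving out 1 library (4 without Cbl-b-/- OTII replicate 3, 0 without any of the 3 Cbl-b-/-W131AOTII libraries, and without Cbl-b-/- OTII replicate 2 a different member, Eno3, higher). For W131A in the thymus the count of 0 became 1 with DESeq2 or offsets, 2 without the filter and 3 with voom, and 0 to 1 leaving out 1 library (1 without W131AOTII replicate 1). Between the OTII tissues the count of 6 became 12 with voom and 11 with offsets, with or without the block, and 3 to 7 leaving out 1 library (3 without peripheral replicate 3). With offsets the calls over all genes rose as well, as given above. Between the W131AOTII tissues the count of 8 was 4 to 8 leaving out 1 library (4 without peripheral replicate 1 or thymic replicate 3, 5 without thymic replicate 1). The interaction count of 0 became 2 without the filter and was 0 to 0 leaving out 1 library. The W131A effect between tissues went from 0 to 1 with DESeq2, without the filter or with voom, and 0 to 1 leaving out 1 library (1 without thymic W131AOTII replicate 1).

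Replicate numbers gave no sign of pairing: over 45 same-numbered pairs the correlation of deviations was -0.304 to 0.205, and 5 of 18 libraries correlated best with their own number. Over 90 pairs with different numbers it was -0.281 to 0.327. Whether libraries of equal number share animals is not stated in the labels. The fit with the replicate block gave counts of 0, 4, 2, 0, 0, 6, 8, 0 and 0 in the order above, so Ldhb for W131A without Cbl-b, and Gpi1 and Ldha for Cbl-b loss in W131AOTII cells, no longer passed (adjusted p = 0.0523, 0.0567 and 0.0505). Among uncalled members that passed under some alternative, reversed values were those of Slc2a3 (-0.30 to 0.017 leaving out 1 library, above 0 without Cbl-b-/- OTII replicate 1) and Gpi1 (0.016 with offsets and 0.015 with block and offsets) for Cbl-b loss in OTII cells, and Tpi1 (-0.085 to 0.87 leaving out 1 library, below 0 without thymic W131AOTII replicate 1) for W131A in the thymus; other uncalled members with values near 0 also changed sign with offsets, among them Eno1 and Pkm for W131A in the periphery. The 9 isozyme shares that passed became 0 without the 3 libraries that stand apart, where the smallest possible p was 0.02, and 6 to 11 leaving out 1 library. Depth limits Hk2, and 3 libraries per group limit all tests.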
